A study of Homo sapiens with 15 samples.

Results

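The translation initiation factor genes were followed in THP-1 cells, an established human cell line of monocytic leukaemia origin, across all 5 groups of an expression array series. Members were taken by gene symbol, and the rule uses no measured value, although it was drawn up with earlier results of these data known. They are the probe sets annotated to a single gene whose symbol begins with EIF1, EIF2B, EIF2S, EIF3, EIF4A, EIF4B, EIF4E, EIF4G, EIF4H, EIF5 or EIF6, without the eIF2 kinases, the eIF4E-binding proteins and pseudogenes. This gave 112 of the 54613 probe sets that are not array controls, and 43 of the 19775 genes that have a probe set of their own. Of these, 108 probe sets belong to 41 protein-coding genes, and 4 belong to the non-coding RNAs EIF1B-AS1 and EIF3J-DT, whose symbols fit the rule. The rule also takes in EIF4ENIF1, a carrier of eIF4E into the nucleus, EIF4A3, a helicase of the exon junction complex, and EIF5A, which acts mainly in elongation.

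The groups were untreated cells at 0 h, cells given infliximab for 6 h or 24 h, and cells given CDP870 for 6 h or 24 h, each with 3 arrays. Infliximab is a chimeric IgG antibody against tumour necrosis factor (TNF), whereas CDP870 (certolizumab pegol) binds TNF as a pegylated Fab' and lacks the Fc part. All 15 arrays come from the same cell line and no genetic change is named in the labels, and the sources used here state neither dose nor culture conditions. No untreated cells were taken at 6 h or 24 h, so a comparison with 0 h holds the agent and the time in culture together, whereas a comparison of the agents is matched on time. The series' design text calls the arrays biological replicates. Since the labels do not speak of separate cultures, the p-values rest on the spread between the arrays, which may be technical.

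Initiation of translation begins when eIF2 carries the initiator methionyl-tRNA to the small ribosomal subunit, together with eIF1, eIF1A, eIF3 and eIF5. The eIF4 factors bring in the capped mRNA, the complex scans to a start codon, eIF5 makes eIF2 hydrolyse its GTP, and eIF5B joins the large subunit. eIF1 favours strict choice of the start codon and eIF5 opposes it, and eIF2B recharges eIF2 with GTP, the step that is blocked when eIF2 is phosphorylated under stress.

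The deposited values are log2 probe set summaries between 0.17 and 11.94, and the array medians ran from 2.93 to 3.07. They are not amounts, so levels of different probe sets are not compared. Of the 14 monocytic markers 12 were measured, and 10 of these lay above the array median on every array. FCGR1A lay below it on all 15. The mean of the 18 hybridisation spike-in probe sets, which should be alike on all arrays, was 7.38 ± 0.13 (SD, n = 3) in untreated cells and 7.75 ± 0.04 with infliximab for 6 h, and between 7.50 and 7.60 in the other groups. Infliximab 24 h replicates 5 and 6 and untreated replicate 3 were the least like the others, with median correlations to the other arrays of 0.9725, 0.9787 and 0.9823 against 0.9833 to 0.9896 elsewhere. Infliximab 24 h replicate 6 also had the largest gap between 3' and 5' probe sets of actin (0.27 against -0.14 to 0.03 on the other arrays).

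Of the 112 member probe sets 95, from 40 genes, lay above the array median on at least 3 of the 15 arrays and were tested. The other 17 were not, and they include every member probe set of EIF3C, EIF4A2 and EIF4E3. The only member probe sets of EIF3C (236700_at) and EIF4A2 (1556350_a_at) had means of 1.56 and 0.98. Probe sets that carry more than 1 symbol were left out, so this does not show that these mRNAs are absent. Of the 95, 88 lay above the median on all 15 arrays. The remaining 7 may have passed through the group in which they were high, and those of EIF1 and EIF3J-DT named in the results are marked as such.

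Infliximab and CDP870 differed in the level of many initiation factor mRNAs, and the largest differences of single probe sets were in EIF5 and EIF1. Over the mean of both times EIF5 was 1.48-fold to 2.16-fold lower with infliximab than with CDP870 on its 5 probe sets, and EIF1 was 1.23-fold to 1.45-fold higher on 6 of its 7. The EIF5 range was 1.49-fold to 2.06-fold at 6 h and 1.48-fold to 2.26-fold at 24 h. In that comparison (6 arrays against 6), 19 of the 95 tested members were higher and 17 lower with infliximab at an adjusted p under 0.05 (limma, Benjamini-Hochberg over all 28897 tested probe sets). That is 37.9% of the members against 16% of all tested probe sets, of which 9.41% were higher and 6.55% lower. The 19 include EIF1 212225_at and EIF3J-DT 235124_at, which lay above the array median on 3 and 8 arrays only. Of the 88 members above it on every array 17 were higher and 17 lower, 38.6% against 17.3% of all such probe sets. The median absolute difference was 0.20 in the members and 0.12 in all tested probe sets on the log2 scale. With 1 probe set per gene, the one with the highest mean, 8 of 40 genes (EIF3J-DT among them) were higher and 7 lower. That is 37.5%, against 18.6% of all 13607 tested genes (10.7% higher and 7.84% lower). Of the 36 called probe sets 28 (212225_at and 235124_at among them) kept their call in every other setting and with each array left out. The other 8 were 1 probe set each of EIF1AD, EIF1AX, EIF1B, EIF2S2, EIF3A, EIF3B, EIF3D and EIF5B.

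Of the 35 tested probe sets of factors of start codon choice and initiator tRNA binding 12 were higher, 212225_at among them, and 12 lower. That is 68.6%, against 16% of all tested probe sets, and it counts several probe sets each of EIF1 and EIF5. With 1 probe set per gene 3 of these 10 genes were higher and 3 lower, against 10.7% and 7.84% of all tested genes. Of the 25 probe sets of eIF3 subunits 6 were higher and 3 lower (36.0%), and of the 7 of eIF2B 1 was lower (EIF2B3, 14.3%). None of the 17 probe sets of cap-binding factors and their helpers was called. By limma 5 of these (29.4%) had an unadjusted p under 0.05, against 28.9% of all tested probe sets. Of the 7 of the remaining factors 1 was lower (EIF4A3), and of the 4 of the non-coding RNAs 1 was higher (EIF3J-DT). No test compared these groups of factors with each other. Values of the 6 infliximab arrays and the 6 CDP870 arrays did not overlap for 29 of the 95 members (212225_at and 235124_at included), or 30.5%, against 9.38% of all tested probe sets.

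**Figure D1:**
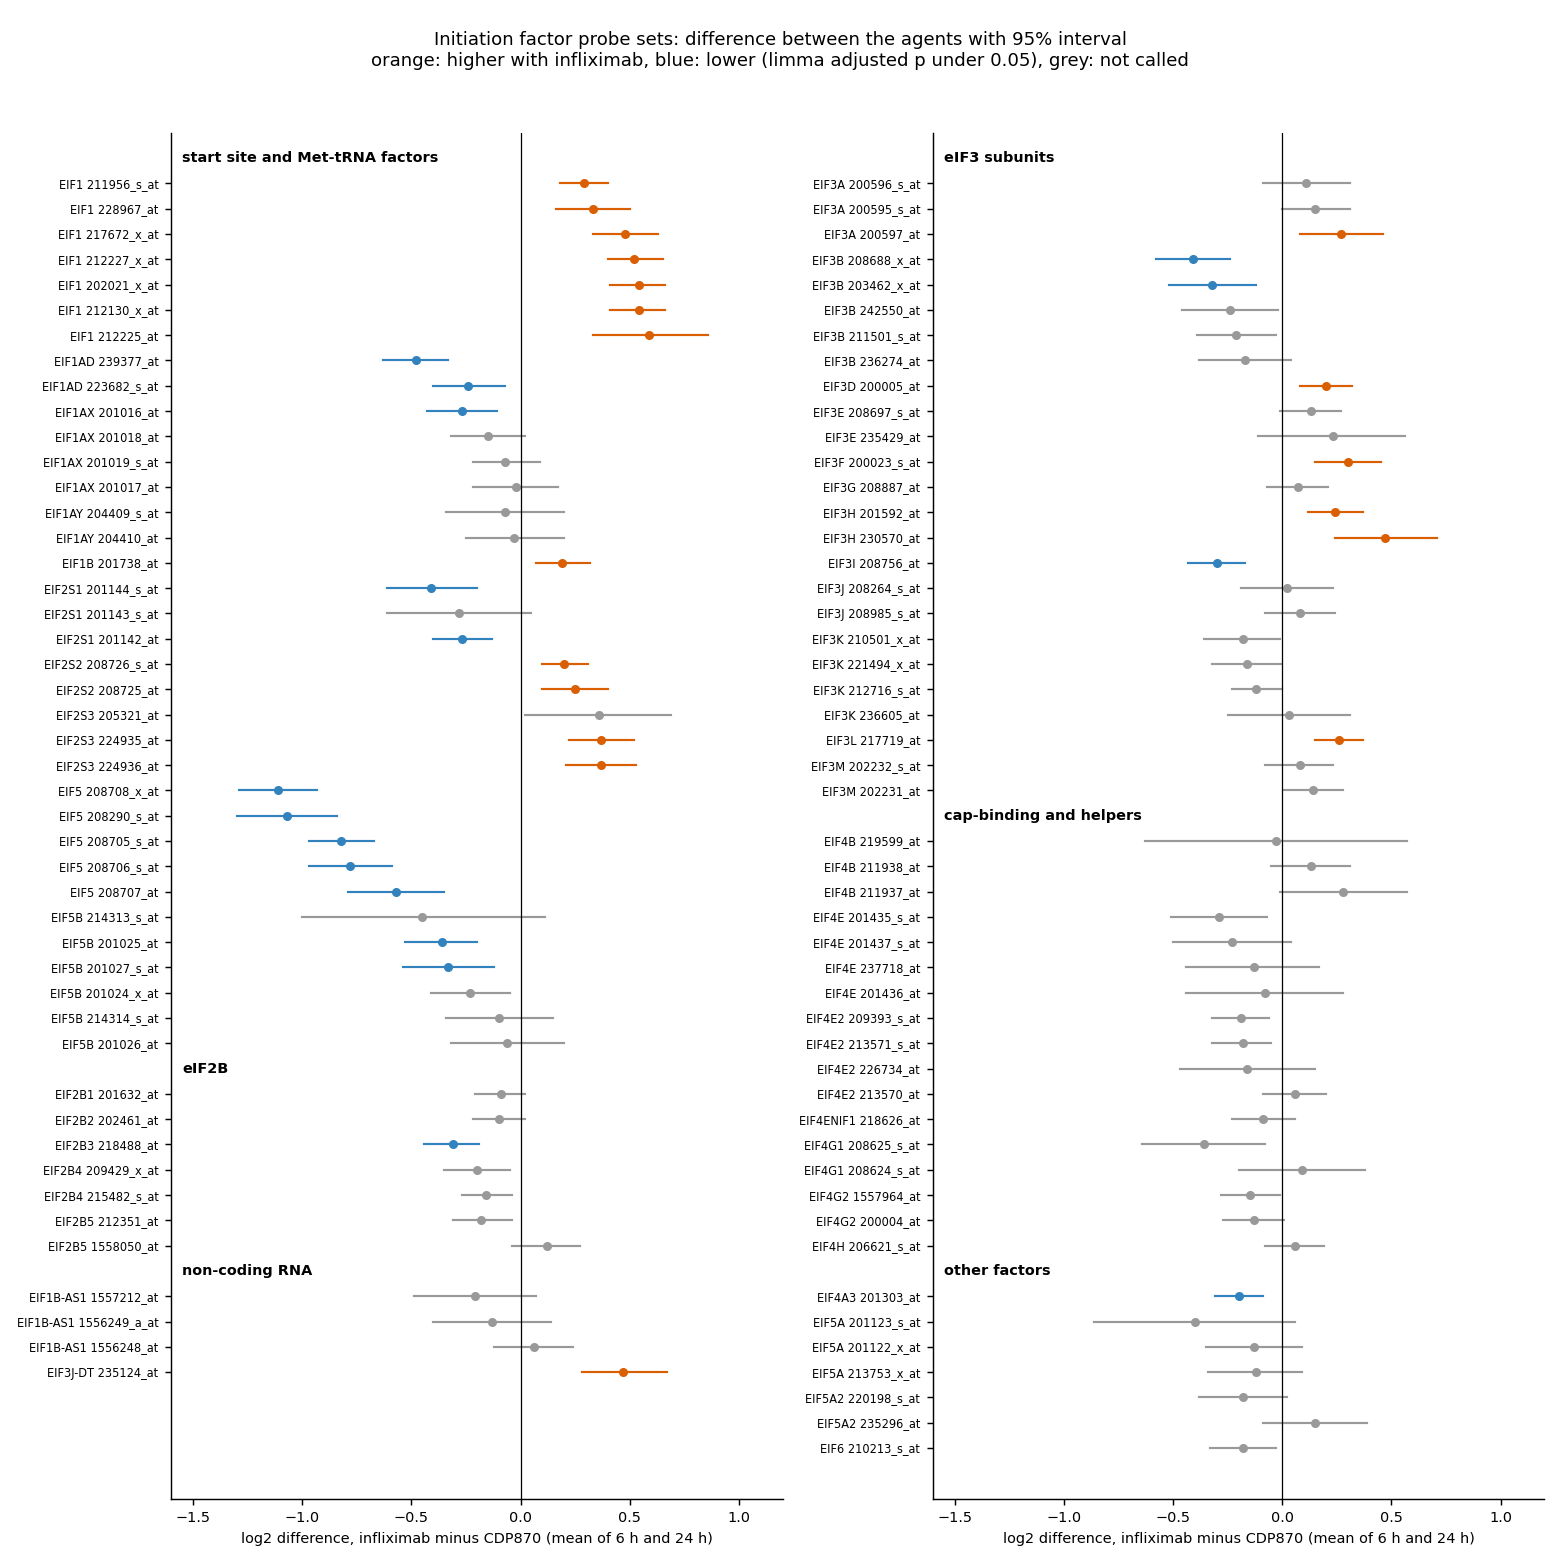
The difference between infliximab and CDP870 (mean of 6 h and 24 h, log2, x axis) for each of the 95 tested initiation factor probe sets, with points for the estimate and lines for the 95% interval of the limma model. EIF5 lies furthest to the left (-1.11 to -0.57), the EIF1 probe sets lie to the right (0.29 to 0.54, and 0.59 for the rarely detected 212225_at), and no cap-binding probe set is coloured as called.

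EIF5 encodes the factor that triggers GTP hydrolysis by eIF2 at the start codon. Its 5 probe sets were all lower with infliximab at both times, against untreated cells and against CDP870. Probe set 208708_x_at read 8.86, 8.58 and 8.94 in untreated cells, 7.56, 7.93 and 7.84 with infliximab for 6 h, and 7.66, 7.44 and 7.77 for 24 h. It read 8.84, 8.79 and 8.82 with CDP870 for 6 h and 8.86, 8.81 and 8.73 for 24 h. All 6 infliximab arrays lay below all 9 others. Against untreated cells EIF5 on this probe set differed by -1.02 ± 0.12 (SE) with infliximab for 6 h and -1.17 ± 0.12 for 24 h (limma adjusted p = 0.000176 and 3.71e-05). It was 2.16-fold lower with infliximab than with CDP870 over both times, with a log2 difference of -1.11 ± 0.09 (95% interval -1.29 to -0.93, adjusted p = 7.27e-07).

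Probe set 208290_s_at read 8.20, 7.90 and 8.34 in untreated cells, 7.04, 7.29 and 7.42 with infliximab for 6 h and 7.43, 6.80 and 7.17 for 24 h. With CDP870 its 6 arrays ran from 8.14 to 8.35. The infliximab arrays were again below every other array, and the difference between the agents was -1.07 ± 0.11 (limma adjusted p = 1.26e-05). Probe set 208705_s_at, the one with the highest values, read 9.71, 9.97 and 9.81 in untreated cells, 8.78, 8.98 and 9.10 with infliximab for 6 h and 8.90, 8.77 and 9.0 for 24 h. Its 6 CDP870 arrays lay in the narrow range of 9.69 to 9.79, and the agents differed by -0.82 ± 0.07 (limma adjusted p = 2.88e-06).

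Probe set 208706_s_at read 9.06, 8.72 and 9.04 in untreated cells, 8.14, 8.20 and 8.04 with infliximab for 6 h and 7.92, 8.37 and 8.16 for 24 h, against 8.76 to 9.09 with CDP870. The groups did not overlap, and the agents differed by -0.78 ± 0.09 (limma adjusted p = 4.27e-05). Probe set 208707_at had much the lowest values. It read 4.91, 4.50 and 4.73 in untreated cells, 4.14, 3.83 and 3.92 with infliximab for 6 h, 4.16, 4.31 and 3.83 for 24 h, and 4.47 to 4.90 with CDP870. Its difference between the agents was the smallest of the 5 at -0.57 ± 0.10 (limma adjusted p = 0.00164), and here too the infliximab arrays lay below all others.

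Against untreated cells the 5 EIF5 probe sets fell by 0.75 to 1.02 with infliximab for 6 h and by 0.61 to 1.17 for 24 h, and all 10 of these differences were called. With CDP870 the same differences lay between -0.18 and 0.14, with 95% intervals that reached from -0.49 to 0.46 in all. Where only the 6 arrays compared were fitted, 3 of the 5 calls against untreated cells at 24 h were lost. Adding the spike-in level of the array to the model lost 2 of the 5 calls at 6 h, with differences of -1.08 to -0.73 over the 5 and larger errors, and leaving out untreated replicate 2, untreated replicate 4 or infliximab replicate 7 lost that of 208707_at at 24 h. All 5 calls against CDP870 over both times held in every setting and with every array left out, with 208708_x_at between -1.15 and -1.05 over the left-out arrays. Probe sets whose names end in _x_at or _s_at can also bind related transcripts, and 208707_at is the only one of the 5 without that mark.

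**Figure D2:**
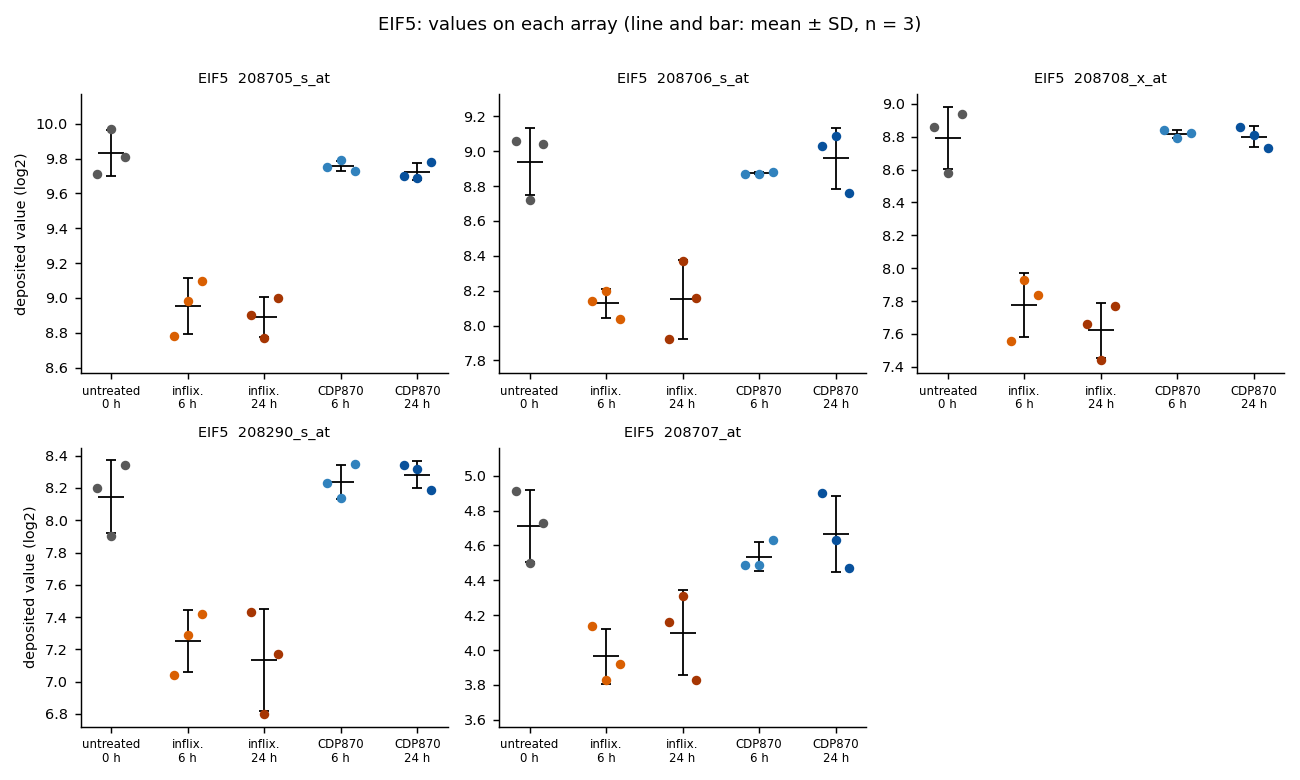
Deposited log2 values of the 5 EIF5 probe sets on each of the 15 arrays (points), with the mean and SD of each group of 3 (line and bar). The y axes differ between panels and do not start at 0. The 6 infliximab arrays lie below the 9 other arrays in every panel.

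EIF1 encodes the small factor that holds the scanning ribosome open and favours start codons in good context. Of its 7 probe sets, the 6 that lay above the array median on every array were higher with infliximab than with CDP870 over both times, by 0.29 to 0.54 on the log2 scale. Probe set 211956_s_at, the one with the highest values, read 11, 11.05 and 10.97 in untreated cells, 11.34, 11.36 and 11.35 with infliximab for 6 h and 11.28, 11.24 and 11.34 for 24 h. It stayed between 10.99 and 11.07 on the 6 CDP870 arrays. The infliximab arrays lay above all 9 others, and the agents differed by 0.29 ± 0.05 (SE, limma adjusted p = 0.00124), which is 1.23-fold. This value is near the top of the scale of the arrays, where the highest value of any probe set was 11.94.

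Probe set 212130_x_at read 9.63, 9.64 and 9.61 in untreated cells, 10.02, 10.15 and 10.06 with infliximab for 6 h and 10.01, 10.06 and 10.19 for 24 h, against 9.48 to 9.62 with CDP870. Infliximab was 1.45-fold higher than CDP870 there (0.54 ± 0.06, limma adjusted p = 2.02e-05). The probe sets 202021_x_at and 212227_x_at gave 0.54 and 0.52, and 217672_x_at gave 0.48. These 4 and 211956_s_at also rose against untreated cells, by 0.34 to 0.49 at 6 h and by 0.28 to 0.49 at 24 h. All of them carry the _x_at or _s_at mark, so they can also bind related transcripts. Their group means with CDP870 lay within 0.11 of those in untreated cells, and single arrays differed by more.

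Probe set 228967_at, without the _x_at or _s_at mark, was called between the agents over both times (0.33). Against untreated cells it differed by 0.25 at each time and was not called. The seventh, 212225_at, lay above the array median on only 3 of the 15 arrays, all with infliximab, so its difference of 0.59 (95% interval 0.33 to 0.86) is given as a value only. The calls of EIF1 against untreated cells at 6 h were lost for all 5 probe sets when the spike-in level was added to the model. The differences themselves were then 0.32 to 0.44, and their SE rose from between 0.07 and 0.10 to between 0.11 and 0.15. Those against CDP870 over both times held.

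**Figure D3:**
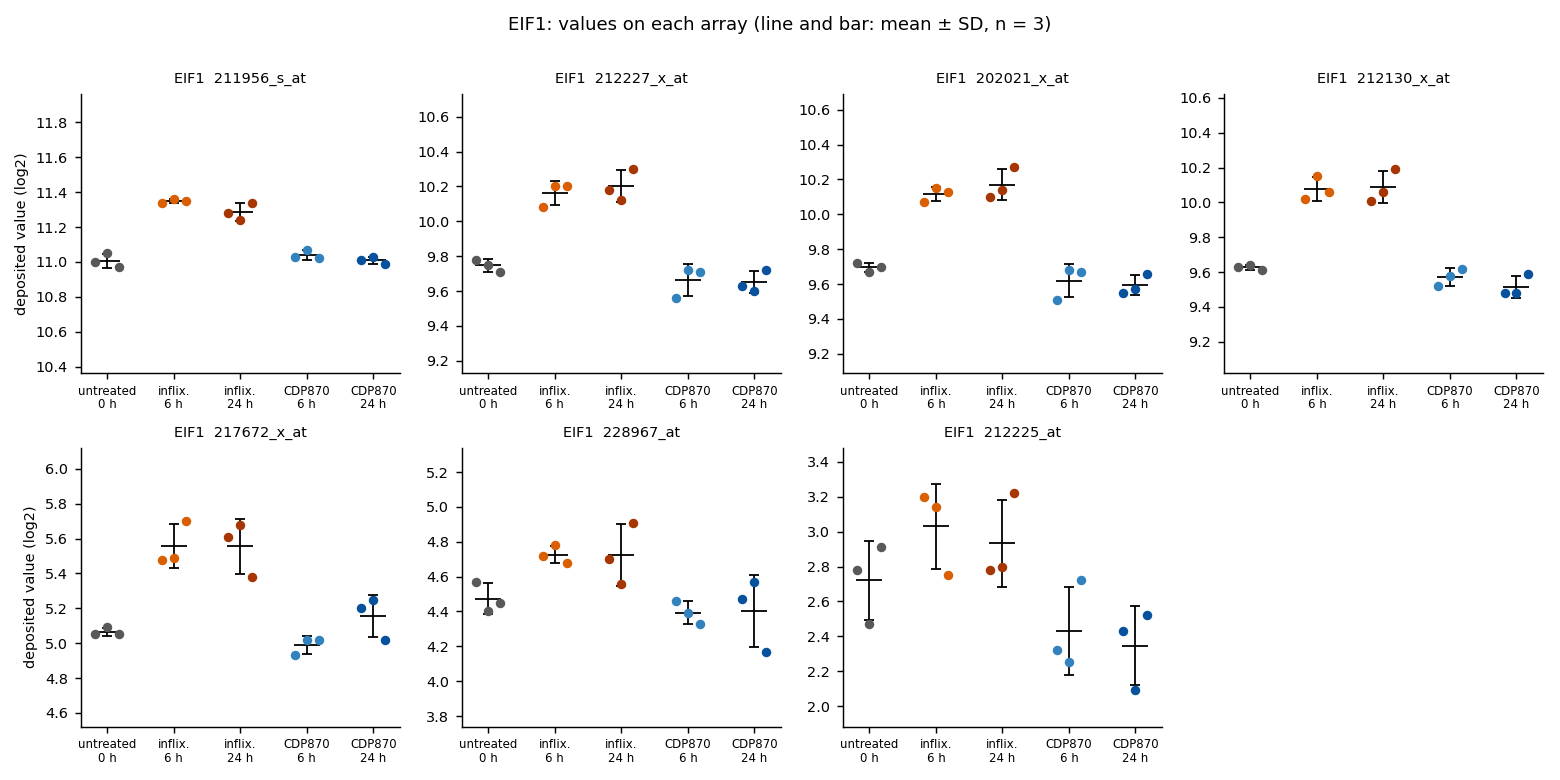
Deposited log2 values of the 7 EIF1 probe sets on each of the 15 arrays (points), with the mean and SD of each group of 3 (line and bar). The y axes differ between panels and do not start at 0. In the 5 panels with the highest values the infliximab arrays lie above all others. In 212225_at the infliximab arrays overlap the untreated arrays but not the CDP870 arrays.

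EIF1 and EIF5 moved in opposite directions on the same arrays. Against the untreated mean, EIF1 on 211956_s_at was higher by 0.23 to 0.35 on each of the 6 infliximab arrays, and EIF5 on 208705_s_at differed by -1.06 to -0.73. On the 6 CDP870 arrays the same differences were -0.02 to 0.06 for EIF1 and -0.14 to -0.04 for EIF5. Since EIF1 and EIF5 were the members with the clearest and opposite differences, the 250 bases before the annotated start of each are printed 5' to 3' from the RefSeq annotation of GRCh38.p14. EIF5 lies on chromosome 14 (chr14:103333987-103334236, plus strand) and EIF1 on chromosome 17 (chr17:41688635-41688884, plus strand). Capitals mark the letters CCAAT and GGGCGG on either strand (ATTGG and CCGCCC on the reverse).
EIF5 promoter: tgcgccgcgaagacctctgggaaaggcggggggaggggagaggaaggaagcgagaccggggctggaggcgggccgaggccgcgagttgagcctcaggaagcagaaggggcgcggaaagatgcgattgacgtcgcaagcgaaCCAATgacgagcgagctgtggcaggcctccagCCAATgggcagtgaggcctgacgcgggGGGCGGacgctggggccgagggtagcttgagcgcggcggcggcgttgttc
EIF1 promoter: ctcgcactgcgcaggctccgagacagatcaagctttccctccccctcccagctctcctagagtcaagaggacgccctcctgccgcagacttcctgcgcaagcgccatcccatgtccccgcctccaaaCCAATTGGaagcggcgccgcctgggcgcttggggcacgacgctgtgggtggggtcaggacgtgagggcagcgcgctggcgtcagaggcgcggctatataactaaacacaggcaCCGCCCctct
Each stretch holds both motifs. In EIF5 CCAAT begins 109 and 77 bases before the start and GGGCGG 50 bases before it. In EIF1 a CCAAT begins 123 bases before the start and overlaps a reverse match, and the reverse of GGGCGG begins 10 bases before it. TGATGNAA, a pattern of the amino acid response type, was found on neither strand of the 300 bases around either start, nor in any of the 35 members of 41 that matched the promoter table, against 3.7% of all 27305 promoters. CCAAT was found in 34.3% of the 35 and 35.7% of all promoters, GGGCGG in 71.4% and 44.6%, CCGGAA in 40.0% and 17.6%, and CACGTG in 28.6% and 7.4%. The 35 are all coding genes, whereas the 27305 promoters were not limited to coding genes, so the shares do not compare like with like. These are counts of letters in a window and show no binding.

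The other coding genes with symbols that begin with EIF1 were mixed. On the probe sets with the highest mean EIF1AD differed by more than EIF1 (-0.48 against 0.29), and EIF1B, EIF1AX and EIF1AY by less. EIF1B, a close relative of EIF1, was 1.14-fold higher with infliximab than with CDP870 over both times (201738_at, 0.19 ± 0.06, limma adjusted p = 0.0361), a call that was lost in 2 other settings and with 8 of the 15 arrays left out. EIF1AD encodes a protein with an eIF1A-like domain. On its probe set 239377_at the untreated cells read 7.04, 6.76 and 6.89, infliximab 6.44, 6.51 and 6.48 at 6 h and 6.25, 6.53 and 6.53 at 24 h, and CDP870 6.75 to 7.13. The infliximab arrays were below all others, and the agents differed by -0.48 ± 0.07 (limma adjusted p = 0.000362). Its other probe set, 223682_s_at, gave -0.24 with an adjusted p of 0.05, a call lost in 7 other settings and with 12 arrays left out. EIF1AX, the gene of eIF1A, gave 1 call among its 4 probe sets (201016_at, -0.27 ± 0.07, adjusted p = 0.0224). It was lost with the mean of its probe sets, and the other 3 differed by -0.15 to -0.02. The 2 probe sets of EIF1AY were not called in any comparison.

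The 3 subunits of eIF2, which carries the initiator tRNA, did not move together. EIF2S1, the alpha subunit that stress kinases phosphorylate, was lower with infliximab than with CDP870 on 201144_s_at (-0.41 ± 0.09, SE, limma adjusted p = 0.00849) and 201142_at (-0.27 ± 0.06, adjusted p = 0.0104). On 201144_s_at it read 8.44, 8.50 and 8.35 with infliximab for 6 h and 8.04, 8.38 and 8.51 for 24 h, below the 8.70 to 8.82 of the 6 CDP870 arrays. The untreated arrays read 8.96, 8.43 and 8.75 and overlapped the infliximab arrays through replicate 3, and EIF2S1 was called against untreated cells at neither time.

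EIF2S3, the gamma subunit that binds GTP and the tRNA, was higher. On 224935_at it read 8.30, 8.12 and 8.36 in untreated cells, 8.83, 8.84 and 8.84 with infliximab for 6 h, 8.60, 8.78 and 8.81 for 24 h, and 8.22 to 8.51 with CDP870. The infliximab arrays lay above all others. It rose by 0.58 ± 0.10 at 6 h and 0.47 ± 0.10 at 24 h against untreated cells (limma adjusted p = 0.00325 and 0.0121) and was 1.30-fold higher than with CDP870 over both times (0.37 ± 0.07, adjusted p = 0.00232). Probe set 224936_at gave the same 0.37 between the agents, and 205321_at gave 0.36 without being called, with infliximab 24 h arrays at 9.10, 8.25 and 9.47. The low one was replicate 6, the array with the largest gap between 3' and 5' probe sets.

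EIF2S2, the beta subunit that binds eIF5, was slightly higher on both its probe sets. On 208726_s_at the 6 infliximab arrays lay between 10.23 and 10.27, above the 10.12 to 10.18 of untreated cells and the 9.98 to 10.09 of CDP870. The agents differed by 0.20 ± 0.05 (limma adjusted p = 0.0126), and it was not called against untreated cells.

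The exchange factor eIF2B showed 1 call among 7 probe sets of its 5 subunit genes. EIF2B3, the gamma subunit of the catalytic part, read 7.17, 6.97 and 6.93 in untreated cells, 6.73, 6.65 and 6.66 with infliximab for 6 h, 6.55, 6.58 and 6.66 for 24 h, and 6.88 to 7.0 with CDP870. The infliximab arrays lay below all others. Against untreated cells it was lower at 6 h (-0.34 ± 0.08) and 24 h (-0.43 ± 0.08, limma adjusted p = 0.0206 and 0.00738), and differed by -0.31 ± 0.06 between the agents (adjusted p = 0.00208). Its calls against untreated cells were lost when only the compared groups were fitted. Of the other 6 probe sets, 5 were lower by 0.09 to 0.20 and 1 of EIF2B5 was higher by 0.12, and the 2 with the smallest p were both of EIF2B4 (-0.20 and -0.16, adjusted p = 0.0596 and 0.0668).

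**Figure D4:**
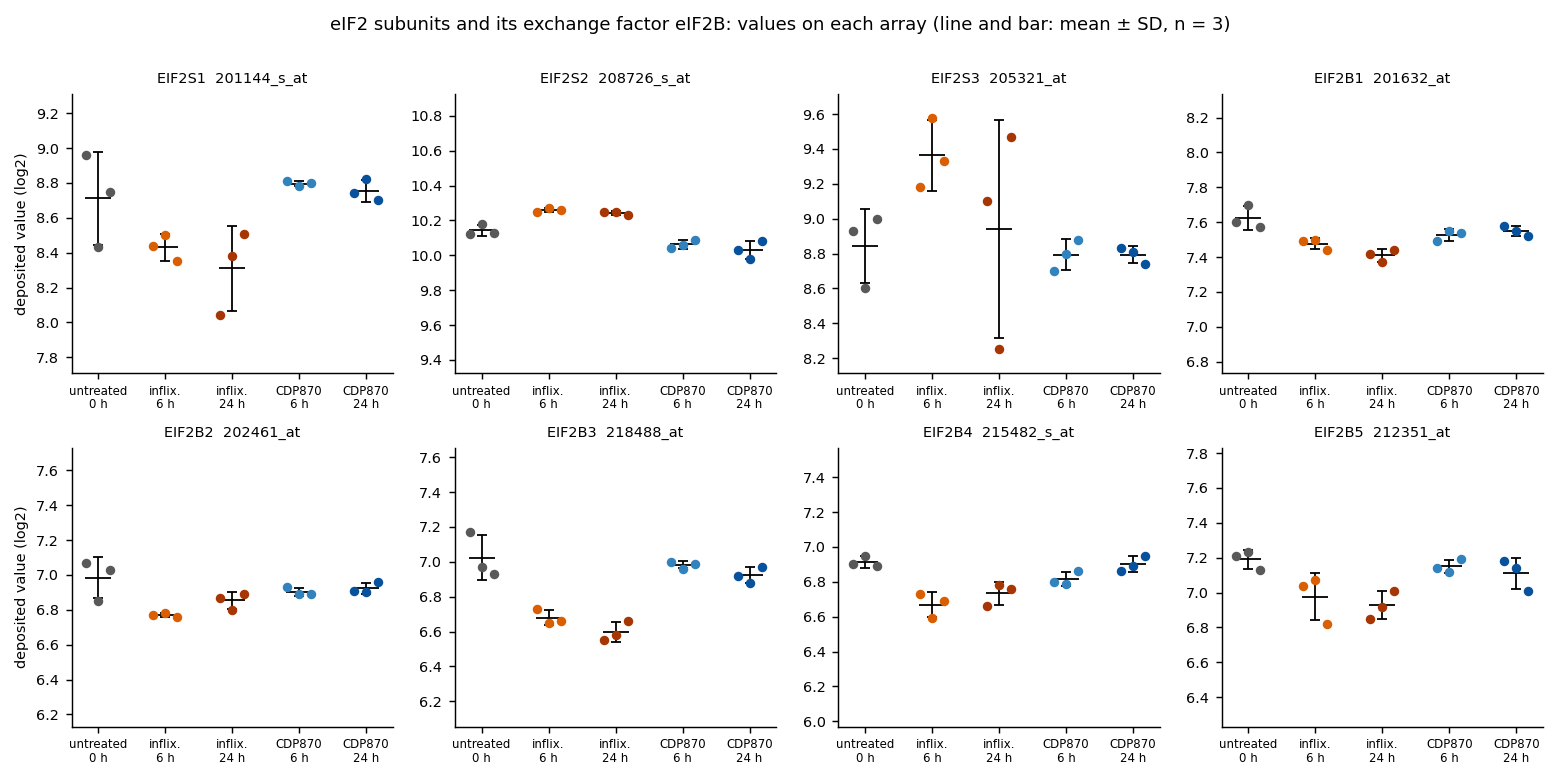
Deposited log2 values of the eIF2 and eIF2B subunits on each of the 15 arrays (points), for the probe set of each gene with the highest mean, with the mean and SD of each group of 3 (line and bar). The y axes differ between panels and do not start at 0. EIF2B3 is lower and EIF2S2 higher on all 6 infliximab arrays, and EIF2S3 on this probe set spreads widely at 24 h.

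EIF5B, the GTPase that joins the large ribosomal subunit, was lower with infliximab on 2 of its 6 probe sets. On 201025_at untreated cells read 6.13, 5.81 and 6.03, infliximab 5.60, 5.60 and 5.70 at 6 h and 5.57, 5.87 and 5.55 at 24 h, and CDP870 5.88 to 6.14. The agents differed there by -0.36 ± 0.08 (limma adjusted p = 0.00445), with infliximab 24 h replicate 6 closest to the CDP870 arrays. On 201027_s_at they differed by -0.33, and the other 4 gave -0.45 to -0.06 without a call.

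The subunits of eIF3, the large scaffold that binds the small ribosomal subunit, split in direction. EIF3B, a core subunit, was lower with infliximab than with CDP870 on 208688_x_at (-0.41 ± 0.08, SE, limma adjusted p = 0.00322) and 203462_x_at (-0.32 ± 0.09, adjusted p = 0.0297), and EIF3I, a subunit that binds EIF3B, was lower by 0.30 (208756_at, -0.30 ± 0.06, adjusted p = 0.00326). EIF3H was higher on both its tested probe sets (201592_at 0.24 ± 0.06, adjusted p = 0.00996, and 230570_at 0.47 ± 0.11, adjusted p = 0.00881). EIF3F, which pairs with EIF3H, was higher by 0.30 ± 0.07 (adjusted p = 0.00941), EIF3L by 0.26 ± 0.05 (adjusted p = 0.00355) and EIF3D by 0.20 ± 0.06 (adjusted p = 0.0283). The largest subunit EIF3A was called on 1 of 3 probe sets (200597_at, 0.27, adjusted p = 0.0496), a call lost in 7 of the other settings.

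EIF3I read 8.64, 8.61 and 8.55 in untreated cells, 8.39, 8.41 and 8.44 with infliximab for 6 h, 8.19, 8.20 and 8.42 for 24 h, and 8.56 to 8.72 with CDP870. EIF3L read 10.25, 10.34 and 10.28 in untreated cells, 10.61, 10.59 and 10.51 with infliximab for 6 h, 10.53, 10.59 and 10.59 for 24 h, and 10.28 to 10.36 with CDP870. In both genes the infliximab arrays stood clear of the other 9, below in EIF3I and above in EIF3L. EIF3L rose by 0.28 ± 0.07 against untreated cells at each time (limma adjusted p = 0.0297 and 0.0345).

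EIF3B differed among the infliximab arrays. On 208688_x_at untreated cells read 8.97, 9.27 and 9.15, infliximab for 6 h 8.56, 8.57 and 8.45, and CDP870 8.96 to 9.18. With infliximab for 24 h replicates 5 and 6 read 8.75 and 8.99 and replicate 7 read 8.53. The 6 h arrays and replicate 7 were thus low, whereas replicate 6 lay within the range of the CDP870 arrays. Against untreated cells EIF3B fell by 0.51 to 0.60 on the 4 of its 5 tested probe sets that were called at 6 h. At 24 h its 5 probe sets were between 0.15 and 0.47 below untreated cells and none was called. Genes of the remaining eIF3 subunits with no called probe set between the agents were EIF3E, EIF3G, EIF3J, EIF3K and EIF3M, with differences between -0.18 and 0.23. The 2 smallest p among them belonged to EIF3M 202231_at (0.14, adjusted p = 0.147) and EIF3K 210501_x_at (-0.18, adjusted p = 0.158).

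**Figure D5:**
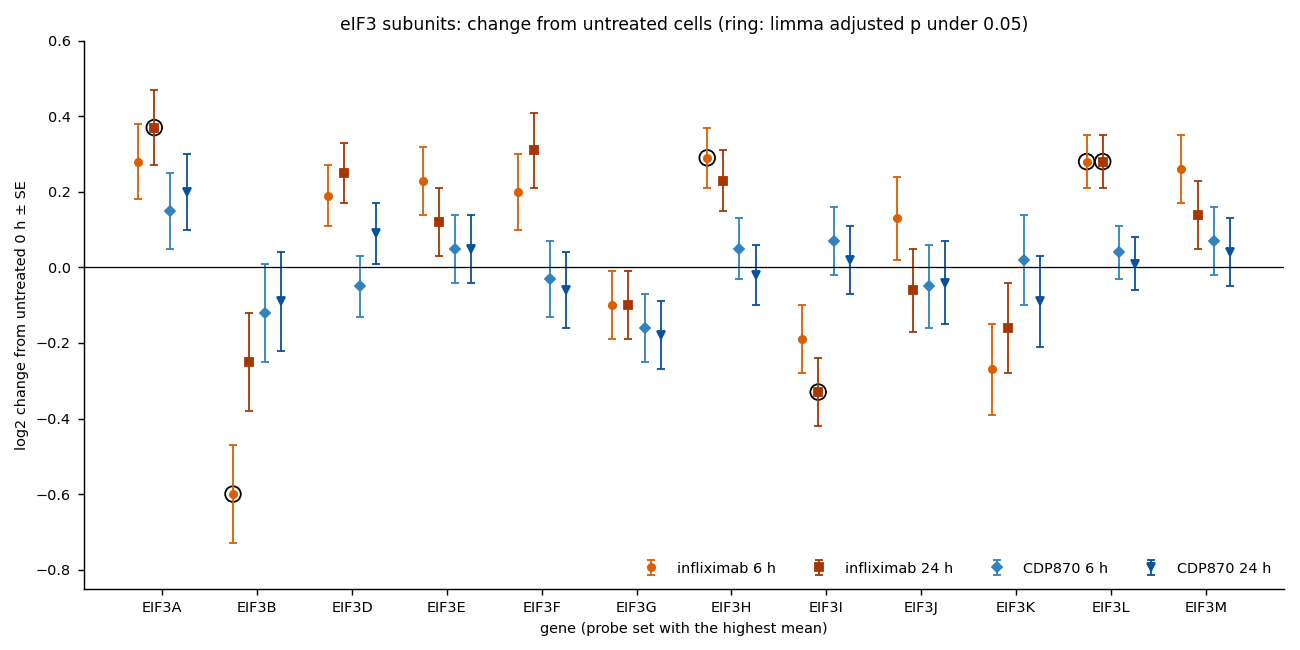
Change from untreated cells at 0 h (log2, y axis) of 12 eIF3 subunit genes in the 4 treated groups, for the probe set of each gene with the highest mean, with bars for the SE of the limma model and rings where the adjusted p was under 0.05. EIF3B is lower with infliximab at 6 h (-0.60), EIF3L is higher at both times (0.28), and no CDP870 point is ringed.

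The cap-binding factors showed no call between the agents, and their intervals bound how far they could differ. EIF4E, the protein that binds the mRNA cap, gave differences of -0.29 to -0.08 on 4 probe sets, the first on 201435_s_at (95% interval -0.51 to -0.07, limma adjusted p = 0.0753). EIF4E2, a relative of EIF4E, gave -0.19 on 209393_s_at (interval -0.32 to -0.06, adjusted p = 0.0542) and -0.32 ± 0.09 against untreated cells at 24 h (adjusted p = 0.0433), a call lost in 7 other settings and with 14 of the 15 arrays left out. EIF4B, which helps the helicase eIF4A, ran from -0.03 to 0.28 with an interval of -0.63 to 0.57 on its most variable probe set. EIF4G2 gave -0.15 and -0.13, EIF4H 0.06 and EIF4ENIF1 -0.09. EIF4A1 is measured only by probe sets that carry more than 1 symbol and is not analysed here. EIF4A2 had no tested probe set, so the cap-binding result does not cover eIF4A.

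EIF4G1, the scaffold that joins the cap-binding protein to eIF3, resembled EIF3B in its spread. On 208625_s_at it read 8.30, 8.75 and 8.40 in untreated cells, 7.86, 7.61 and 7.70 with infliximab for 6 h, and 8.23 to 8.52 with CDP870. With infliximab for 24 h replicates 5 and 6 read 8.61 and 8.66 and replicate 7 read 7.79. It fell by 0.76 ± 0.19 at 6 h against untreated cells (limma adjusted p = 0.0217). Between the agents over both times it gave -0.36 with an adjusted p of 0.0812. The other tested probe set of the gene, 208624_s_at, gave 0.09.

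Among the remaining factors EIF4A3 was lower with infliximab on every array. It read 9.28, 9.30 and 9.24 in untreated cells, 8.98, 9.07 and 8.97 with infliximab for 6 h, 9.02, 9.03 and 9.03 for 24 h, and 9.16 to 9.26 with CDP870, a difference between the agents of -0.20 ± 0.05 (limma adjusted p = 0.017). EIF6, which keeps the large subunit from joining early, gave -0.34 ± 0.10 against untreated cells at 6 h (limma adjusted p = 0.0455, a call lost in 5 other settings and with 10 arrays left out) and -0.18 between the agents (adjusted p = 0.0964). EIF5A gave -0.40 to -0.12 on 3 probe sets with no call. On 201123_s_at untreated replicate 3 read 9.52 beside 8.56 and 8.65, and infliximab 24 h replicates 5 and 6 read 8.96 and 7.47, so that the arrays that stood apart set its wide interval of -0.86 to 0.06. EIF3J-DT, a non-coding RNA divergent from EIF3J, gave 0.47 ± 0.09 between the agents, which is given as a value only because it lay above the array median on 8 of 15 arrays. The coding gene EIF3J gave 0.02 and 0.08.

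The picture at single times was drawn from 3 arrays against 3. Against untreated cells infliximab for 6 h gave 9 higher and 14 lower members, 24.2% against 8.42% of all tested probe sets (4.02% higher and 4.40% lower). At 24 h it gave 9 higher and 9 lower, 18.9% against 6.57% (3.78% higher and 2.79% lower). Against CDP870 there were 8 higher and 9 lower at 6 h, 17.9% against 9.07% (5.10% higher and 3.98% lower). At 24 h there were 9 higher and 10 lower, 20.0% against 6.51% (4.73% higher and 1.79% lower). The higher members include EIF1 212225_at at 6 h and EIF3J-DT 235124_at at 24 h, above the array median on 3 and 8 arrays only. The comparisons share the untreated or the infliximab arrays and are not independent of each other. EIF1, EIF2B3, EIF1AD and EIF5 had called probe sets in all 4. The counts against untreated cells differed between models. With the spike-in level in the model 3 of the 23 calls, all of EIF5, were left at 6 h, and the share of all probe sets was 0.626%. All 23 differences kept their direction there, the median absolute difference of the 95 members was 0.23 in place of 0.25, and their median SE was 0.16 in place of 0.11. With only the compared groups fitted, 2 calls, both of EIF5, were left at 24 h, with 0.692% of all probe sets. Over the mean of both times against CDP870 the spike-in level left 30 members called, and leaving out the 3 arrays that stood apart gave 42 called, 33 of them the same.

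CDP870 gave no call among the members against untreated cells at either time, and none among all probe sets (0%). By limma 3 members (3.16%) had an unadjusted p under 0.05 at each time, against 4.68% and 4.70% of all tested probe sets. The median absolute difference of the members was 0.08 and 0.09, and it was 0.09 for all tested probe sets at each time. Their differences ran from -0.49 to 0.55 at 6 h and from -0.37 to 0.25 at 24 h. The absence of a call does not show that CDP870 left these mRNAs at their level.

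Between 6 h and 24 h no member was called for infliximab or CDP870, nor for the interaction of agent and time, and the share of all probe sets was 0% in each. By limma 5, 3 and 4 members (5.26%, 3.16% and 4.21%) had an unadjusted p under 0.05, against 11.9%, 4.97% and 9.14% of all tested probe sets. With single arrays left out, calls for infliximab or the interaction appeared only without infliximab 24 h replicate 7. No call appeared without replicate 5 or without replicate 6 of that group. Without replicate 7, 6 of the 95 members were called between the times of infliximab, a smaller share than the 8.52% of all probe sets. There was still none between those of CDP870. EIF4G1 208625_s_at (0.91) and EIF3B 203462_x_at (0.52) and 211501_s_at (0.39) were higher at 24 h, and EIF4B 219599_at (-1.25), EIF2S3 205321_at (-0.69) and EIF4E 201435_s_at (-0.56) were lower. EIF4G1 was then also called for the interaction (0.79, limma adjusted p = 0.0294). It was the only 1 of the 95 members, a smaller share than the 3.18% of all probe sets. The 2 arrays left in that group are those that stood apart. EIF5 and EIF1 were not among these calls.

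The genes that control these factors differed in part. Of 14 genes of the eIF2 kinases and the response to eIF2 phosphorylation 3 were higher and 3 lower with infliximab than with CDP870 over both times. Of all 13607 tested genes 10.7% were higher and 7.84% lower. The median of the list was 0.03 against -0.02 for all tested probe sets. ATF4 encodes the transcription factor whose translation rises when eIF2 is phosphorylated, and TRIB3 and DDIT3 are known targets of it. TRIB3 (1.48 ± 0.08), DDIT3 (1.28 ± 0.09) and ATF4 (0.86 ± 0.06) were higher (limma adjusted p = 1.97e-08, 2.59e-07 and 1.44e-07). EIF2AK3, the kinase of the endoplasmic reticulum, was lower by 0.27 (-0.27 ± 0.08, adjusted p = 0.041), and GCN1 and DNAJC3 were lower as well (-0.39 and -0.31). The arrays measure mRNA, and phosphorylation of eIF2 was not measured.

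Of 14 tested genes of cap-binding control and mTORC1 3 were higher and none lower, with a median of 0.02. This count lay near the share of all 13607 tested genes that were called, 18.6%. EIF4EBP1, which encodes a protein that sequesters EIF4E, was higher by 1.09 ± 0.08, and MLST8, a subunit of mTORC1, by 1.17 ± 0.08 (limma adjusted p = 2.53e-07 and 3.03e-07), while EIF4E itself was not called. MKNK2, a kinase of EIF4E, was higher by 0.33. Of 14 other initiation and scanning factors 2 were higher (EIF2D by 0.25 and DENR by 0.21, which act in recycling and reinitiation) and none lower. That count too lay near the share of all tested genes. Of 8 tested elongation and termination genes EEF1A2 was higher (0.56), and ETF1 and GSPT1, the release factors, were lower (-0.19 and -0.28). The median of that list was 0.07 against -0.02 for all tested probe sets. Among all 13607 tested genes 10.7% were higher and 7.84% lower.

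Of 18 tested genes of the cytosolic aminoacyl-tRNA synthetases, which load tRNAs with amino acids, 11 were higher and 3 lower, with a median of 0.42. Of all 13607 tested genes 10.7% were higher and 7.84% lower. WARS1 (1.49 ± 0.06), CARS1 (1.36 ± 0.06) and GARS1 (1.17 ± 0.05) led the increases (limma adjusted p = 1.94e-09, 4.84e-09 and 3.57e-09). FARSA, FARSB and RARS1 were lower (-0.74, -0.43 and -0.34). The 40 initiation factor genes had a median of -0.08 on their probe sets with the highest mean, and no test was made of the difference between the lists.

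Markers of another cell type moved with the agents. The mean log2 level of 7 epithelial markers was 5.64 to 5.90 with infliximab for 6 h and 5.74 to 5.81 for 24 h, 5.31 to 5.49 in untreated cells, and 4.96 to 5.11 and 5.01 to 5.10 with CDP870 for 6 h and 24 h. All 5 that were tested (EPCAM, KRT5, KRT8, KRT18 and KRT19) were higher with infliximab than with CDP870, by 0.86 to 1.16. Of all 13607 tested genes 10.7% were higher. CDH1 and KRT14 lay below the array median on all 15 arrays. The part of these markers in the differences of the initiation factors was not tested, nor was that of the spike-in level beyond the model given for each comparison. In these bulk samples fewer cells of a kind and less RNA per cell cannot be told apart.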

How the data were processed

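RNA of 15 THP-1 samples was labelled and hybridised to Affymetrix arrays of 54675 probe sets, 62 of them controls. The deposited values are log2 probe set summaries. GCRMA and GCOS are named per the submitters' processing notes, without saying what each did, and the sources used here state no further settings. Genes were named from the platform annotation, with symbols updated by gene number to RefSeq GRCh38.p14.

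A probe set was tested if it exceeded the median (50th percentile) of the array's probe sets, controls left out, on 3 or more of 15 arrays. This gave 28897 probe sets, and those with a single symbol stand for 13607 genes. All 15 arrays entered 1 limma fit (version 3.58.1, R 4.3.3) with a mean for each group. P-values are two-sided and adjusted by Benjamini-Hochberg within each comparison, with calls at an adjusted p under 0.05. The fit was tested on simulated data. Errors beside log2 changes are standard errors. Figures were drawn with matplotlib 3.10.9. All members may be named, and a gene with several probe sets is represented, where 1 is needed, by the tested one with the highest mean. Alternatives covered filters, normalization, the arrays in the fit, array weights, variance model, spike-in level, gene means and left-out arrays. The rule for the members, the gene lists and the arrays that stand apart were chosen with earlier results of these data known. The probe sets of several symbols (9 with a member symbol) were left out.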

Additional observations from a re-analysis of the deposited data

How the results depend on the processing

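No paired analysis was made, because the sample titles do not pair arrays across groups. The replicate numbers used here are the running numbers in those titles and do not tell whether cultures were paired. They run in blocks by group, so the order of the samples and the group cannot be told apart. None of the 113 called differences changed direction in any setting or with an array left out. Of 25 EIF5 differences that were not called, all between -0.18 and 0.14, 17 changed sign in some setting. The counts of called initiation factor probe sets moved as follows. Against untreated cells, infliximab for 6 h gave 23 calls, 15 with only the compared groups fitted, 39 with array weights, 3 with the spike-in level as a covariate and 13 to 26 with 1 array left out (15 without untreated replicate 2 and 13 without infliximab 6 h replicate 9). At 24 h it gave 18 calls, 2 with only the compared groups and 10 to 18 with 1 array left out (10 and 11 without untreated replicates 2 and 4). Infliximab against CDP870 at 6 h gave 17 calls, 30 with only the compared groups, 40 with array weights, 9 with the spike-in level, 30 without the 3 arrays that stood apart, and 10 to 22 with 1 array left out (10 and 11 without infliximab 6 h replicates 9 and 10, and 10, 11 and 10 without CDP870 6 h replicates 14, 15 and 16). At 24 h it gave 19 calls, 11 with no filter, 4 with only the compared groups and 9 to 22 with 1 array left out (11 without infliximab 24 h replicate 5, and 9, 10 and 11 without CDP870 24 h replicates 11, 12 and 13). The mean of both times gave 36 calls and 29 to 39 with 1 array left out.

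Tested by gene mean, the same 5 comparisons called 11, 8, 10, 9 and 19 genes, which count genes and not probe sets. Between the times of CDP870 array weights gave 2 calls in place of 0. Leaving out single arrays gave 0 to 6 calls between the times of infliximab and 0 to 1 for the interaction. Of the 36 calls over both times 28 held with every array left out and in every setting that tested them. EIF1 212225_at and EIF3J-DT are among the 28, but the stricter filter did not test them. Of the 17 and 19 calls at single times 9 and 4 held in this way. Of the 23 and 18 calls against untreated cells 3 and 2 did, all of EIF5. Other causes of these moves were not tested. With 3 arrays a group, small differences are not detectable, and values near the bottom of the scale are the least certain.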
